A study of Rattus norvegicus with 10 samples.

Results

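The question asked of these libraries was which transcripts differ between acupuncture and placebo in the tissue at the needle site over both sampling times. The comparison uses 8 of the 10 libraries of the series: 4 acupuncture (AP) libraries against 4 placebo (PLA) libraries, chosen by their labels alone, with time as a factor. Each library came from a different female Wistar rat, and all the rats carried collagen-induced arthritis, which is brought on by injecting bovine type II collagen in Freund's adjuvant and stands in for the human rheumatoid disease. Under AP a steel needle was inserted beside the lumbar spine and below the knee on both sides and turned at the start of each session, which was given every other day. Under PLA the animals received a weekly injection of sterile saline into the peritoneum. The groups AP_1h and PLA_1h were sampled 1 h after the start of therapy, AP_34d and PLA_34d at 34 days, and each held 2 animals. The 2 libraries of RA_0, taken before therapy, entered no test and are given as a background level. The tissue was the subcutaneous layer with its muscle around the stimulated points, the animals were shaved and were put under ether for blood sampling, and PLA differs from AP in the needle, the site and the schedule at once, so that these cannot be told apart.

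Subcutaneous muscle answers to handling, fasting, stress hormones and injury through a small number of well-known programmes. Glucocorticoids and the FoxO factors switch on ubiquitin ligases that mark muscle proteins for the proteasome, and turn fuel use from glucose to fatty acids. The integrated stress response acts through the factor ATF4 when protein synthesis or amino acid supply is disturbed. Injured fibres and their matrix show the receptor of the cytokine TWEAK, inhibitors of matrix proteases and chemokines that draw monocytes. Fat, nerve, skin and lymphoid tissue lie next to the muscle and can enter the same piece, and in such bulk samples fewer cells of a type and less RNA per cell cannot be told apart.

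Counted reads ranged from 5842104 to 8899521 over the 8. At this depth 1 CPM (a read count per 1000000 after TMM scaling) stood for 5.12 to 10.1 reads, and 3 reads for 0.297 to 0.586 CPM. Of 17221 transcripts in the table, 9570 (55.6%) reached at least 1 CPM in all 4 libraries of either arm. Of these, 9068 did so in both arms, 177 through AP alone and 325 through PLA alone. Skeletal muscle markers were abundant in every library, with a summed level between 141751 and 349991 CPM under PLA and between 145508 and 302325 CPM under AP. PLA_34d replicate 1 stood apart. Markers of T cells, B cells and lymph node summed to 1580.2 CPM there, to 59.6 to 68.7 CPM in the other 3 PLA libraries and to between 45.7 and 111 CPM in the 4 AP libraries, and its mean correlation with the other 7 libraries was 0.905 against 0.932 to 0.949 for these. Values without it are therefore given beside the lists and named transcripts that it moved most.

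No transcript passed. By limma on log2(CPM + 1) with Benjamini-Hochberg adjustment, 0 of 9570 transcripts (0%) had an adjusted p under 0.05, and the smallest adjusted p was 0.368. An unadjusted p under 0.05 was found for 554 transcripts (5.79%). The thresholds of the study (unadjusted p under 0.05, a difference of 2-fold or more, mean level not under 1 CPM) were met by 79 transcripts higher under AP (0.825%) and 86 lower (0.899%). All 4 AP libraries lay above all 4 PLA libraries for 127 transcripts (1.33%) and below them for 153 (1.6%). DESeq2 on the recovered reads called 34 transcripts higher (0.355%) and 27 lower (0.282%), while edgeR's quasi-likelihood test and limma-voom called 0 each. For a single transcript, an exact permutation test of the arms within each time has 36 arrangements and cannot go below a two-sided p of 0.0556, so none is given. The genes below are therefore described by their values, and no difference among them is called.

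The differences at 1 h and at 34 days, which come from separate libraries, had the same sign for 5063 transcripts (52.9%), and their correlation across transcripts, which are not independent replicates, was 0.11. Without 1 library this correlation lay between -0.06 (without PLA_1h replicate 1) and 0.26 (without PLA_1h replicate 2), and it was 0.22 without PLA_34d replicate 1. Of the 92 transcripts that differed by at least 1 on the log2 scale at both times, 71 (77.2%) did so in the same direction, 42 higher and 29 lower under AP, and 21 in opposite directions. With no overlap of the arms and a difference of at least 1 at each time, 15 transcripts were higher (0.157%) and 15 lower (0.157%) under AP. Of the 12 of each direction with the smallest unadjusted p (24 in all, named transcripts below), 23 are described, and non-overlap and direction are what chose them. Mab21l1 and Ccl7, and with them Tubb3 and Fosl1, reached 1 CPM in all 4 libraries of AP alone, and Zfp365, Zfp385b and Prkcz, with Lep and Sytl1, of PLA alone, so that they entered the test through the arm in which they are high. The other 3 transcripts of each direction were Tubb3, Fosl1 and Egln3 on the higher side and Scd, Lep and Sytl1 on the lower. Among list members described further below, Ccl2 and Hoxd10 passed the filter through AP alone, and Trpc1 and Col11a2 through PLA alone. Each had its higher mean in that arm.

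**Figure D1:**
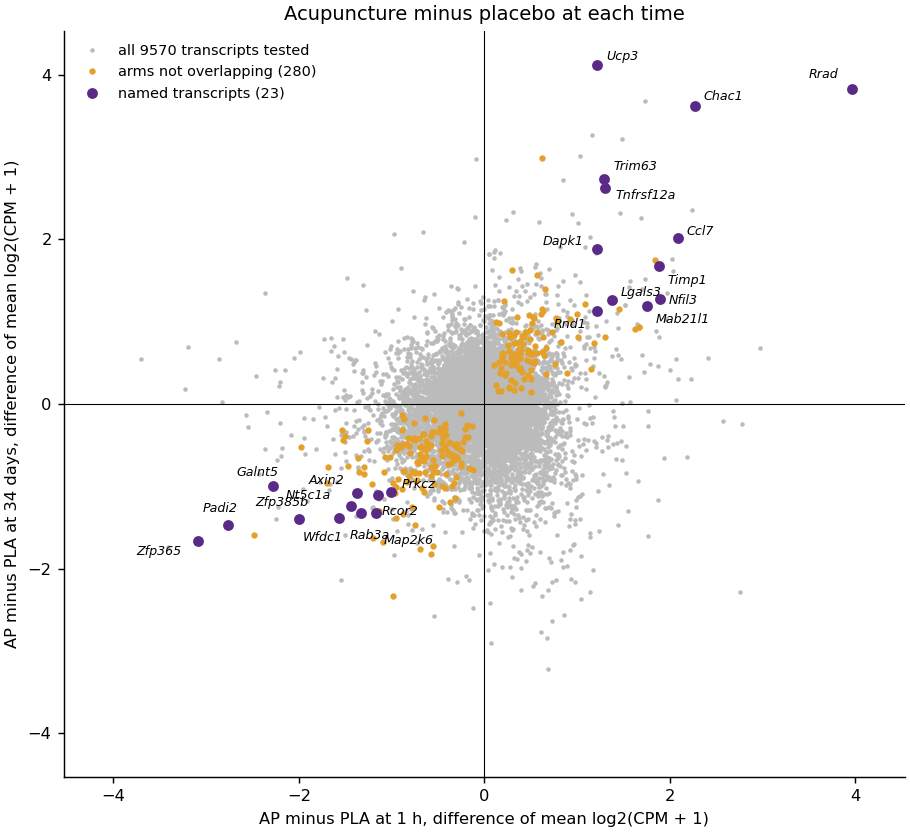
Difference of mean log2(CPM + 1), AP minus PLA, at 1 h (horizontal axis) and at 34 days (vertical axis) for each of the 9570 transcripts tested (grey), the 280 whose arms do not overlap (orange) and 23 named transcripts (purple). The cloud is nearly round (r of 0.11), and the named transcripts lie in its upper right and lower left corners, with Rrad, Chac1 and Ucp3 farthest out on the higher side.

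Genes of cellular stress and protein breakdown were among those higher under AP at both times. Chac1 (NM_001173437, rn4 chr3:105870108-105873318), an enzyme that splits glutathione and is a classical target of ATF4, had the smallest p of all transcripts. It measured 392 and 105 CPM in AP_1h and 268 and 134 CPM in AP_34d against 35.4 and 48.3 CPM in PLA_1h and 13.6 and 15.5 CPM in PLA_34d, and 113 and 76.5 CPM before therapy. Every AP library thus lay above RA_0 replicate 2 and every PLA library below both RA_0 libraries. The log2 difference was 2.95 ± 0.44 (SE, limma, adjusted p = 0.368), with 2.27 at 1 h and 3.62 at 34 days. Trim63 (NM_080903, rn4 chr5:153059573-153073907), the muscle ubiquitin ligase also called MuRF1, was at 2666 and 680.4 CPM in AP_1h and 1375 and 2296 CPM in AP_34d. Its PLA values were 468 and 646 CPM at 1 h and 196 and 364 CPM at 34 days, and those of RA_0 306 and 276 CPM. The lowest AP value was close to the highest PLA value at 1 h, while the arms lay farther apart at 34 days (log2 difference 2.01 ± 0.49, limma adjusted p = 0.489). Dapk1 (NM_001107335, rn4 chr17:9617607-9779457), a calmodulin-dependent kinase linked to cell death and autophagy, gave 106 and 44.8 CPM in AP_1h and 49.2 and 59.5 CPM in AP_34d. PLA_1h held 27.4 and 31.4 CPM and PLA_34d 16.5 and 11.7 CPM, and the level before therapy was 14.6 and 14.1 CPM (log2 difference 1.55 ± 0.30, limma adjusted p = 0.399).

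The promoters of Chac1 and Trim63 are shown because they carry, within the window searched, the short motif named for a factor known to act on each gene. A match is a description of these letters and not a site of binding. The sequences are those of RefSeq on GRCr8, 250 bases before to 50 bases after the gene's start, 5′ to 3′ on the gene's strand, with the motif in capitals. In Chac1 (chr3:126795881-126796180, + strand) the capitals mark the reverse complement of TGATGCAA, the core of the composite element of ATF4 and C/EBP, and its first base lies at -167 from the start. In Trim63 (chr5:151816986-151817285, + strand) they mark the reverse complement of the FoxO element GTAAACA, first base at -205.
Chac1: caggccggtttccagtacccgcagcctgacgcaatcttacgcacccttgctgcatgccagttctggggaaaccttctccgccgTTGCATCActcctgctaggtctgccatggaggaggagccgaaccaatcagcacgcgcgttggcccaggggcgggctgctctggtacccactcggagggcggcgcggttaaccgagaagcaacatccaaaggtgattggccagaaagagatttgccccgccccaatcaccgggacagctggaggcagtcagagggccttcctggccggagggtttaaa
Trim63: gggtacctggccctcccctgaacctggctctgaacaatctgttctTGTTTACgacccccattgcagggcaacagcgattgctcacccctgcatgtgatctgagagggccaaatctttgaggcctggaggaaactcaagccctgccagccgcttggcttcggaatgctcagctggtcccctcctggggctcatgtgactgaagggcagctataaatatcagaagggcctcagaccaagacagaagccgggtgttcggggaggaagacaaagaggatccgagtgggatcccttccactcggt
Searched on both strands, TGATGCAA was found in 0.795% and GTAAACA in 3.78% of 33469 RefSeq promoters of this length. Of the named genes higher under AP, 9 of 12 had a promoter in the table; TGATGCAA was found in Chac1 alone of these and GTAAACA in Trim63 alone. Of the 8 matched among the 12 lower genes, Axin2 held GTAAACA and none held TGATGCAA. Neither the AP-1 element TGAGTCA (4.63% of all promoters), the cyclic AMP response element TGACGTCA (1.83%) nor the D-box TTACGTAA (0.120%) was found in any of the 17, and the E-box CACGTG (6.42%) was found in Zfp365.

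Single genes of fuel use and membrane excitability were also among the named transcripts of the higher side. Ucp3 (NM_013167, rn4 chr1:157896001-157909609), the uncoupling protein of muscle mitochondria whose transcript follows fatty acid supply, was at 858 and 1008 CPM in AP_1h and 1177 and 528 CPM in AP_34d. PLA_1h held 403 and 399 CPM and PLA_34d 28.3 and 69.7 CPM. The AP libraries thus covered a like range at both times, while the PLA level at 34 days was near that of RA_0 (36.3 and 103 CPM). The log2 difference was 1.21 at 1 h and 4.12 at 34 days (unadjusted p of the difference between the times 0.0029), and 2.67 ± 0.57 over both (limma adjusted p = 0.448). Rrad (NM_053338, rn4 chr19:272791-275957), a small GTPase that holds back calcium channels and is known from injured muscle, had the largest difference of the named genes and also a wide spread within groups. It gave 457 and 89.7 CPM in AP_1h, 43.7 and 380.3 in AP_34d, 25.5 and 5.44 in PLA_1h, 16.5 and 3.84 in PLA_34d and 27.9 and 5.35 in RA_0 (log2 difference 3.90 ± 0.77, limma adjusted p = 0.399).

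The injury receptor, a protease inhibitor and monocyte-related genes formed a further set. Tnfrsf12a (NM_181086, rn4 chr10:12940334-12942343) encodes Fn14, the receptor of TWEAK, which is scarce in resting muscle. It was at 37.2 and 66.6 CPM in AP_1h and 58 and 50.9 CPM in AP_34d, against 16.9 and 23 CPM in PLA_1h, 6.51 and 9.81 CPM in PLA_34d and 10.7 and 9.95 CPM in RA_0. The 4 AP values were all above the highest of the other 6, and the log2 difference was 1.96 ± 0.33 (limma adjusted p = 0.368). Timp1 (NM_053819, rn4 chrX:12542496-12547094), an inhibitor of matrix metalloproteinases, gave 25.4 and 9.38 CPM in AP_1h, 7.62 and 11.2 in AP_34d, 4.56 and 2.63 in PLA_1h, 2.8 and 1.71 in PLA_34d and 4.06 and 5.35 in RA_0 (log2 difference 1.78 ± 0.33, limma adjusted p = 0.399). It overlaps Syn1, and reads of both may not have been told apart. Lgals3 (NM_031832, rn4 chr15:23327071-23339006), the lectin galectin-3 that macrophages make in quantity, was at 93.9 and 34.7 CPM in AP_1h and 67.4 and 34.5 CPM in AP_34d. PLA_1h held 23.3 and 19.8 CPM and PLA_34d 22.1 and 17.2 CPM, so that the lower library of each AP pair lay nearest to the PLA range. Ccl7 (NM_001007612, rn4 chr10:70267281-70269131), a chemokine for monocytes, was scarce: 13.7 and 5.46 CPM in AP_1h and 2.93 and 16.3 in AP_34d, 2.48 and 0.526 in PLA_1h and 2.24 and 0.284 in PLA_34d. Over the 4 PLA libraries it rested on 50 reads and over the 4 AP libraries on 290. The log2 differences of Lgals3 and Ccl7 were 1.32 ± 0.33 and 2.05 ± 0.52 (limma adjusted p of 0.489 and 0.511).

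Of the remaining genes on the higher side, Nfil3 (NM_053727, rn4 chr17:18092489-18107708) is a repressor that binds D-box elements of the clock and is also induced by glucocorticoids. It measured 102 and 76.5 CPM in AP_1h and 90.8 and 34.7 in AP_34d, with 19.8 and 26.9 in PLA_1h, 17.6 and 29 in PLA_34d and 21.2 and 17.5 in RA_0 (log2 difference 1.58 ± 0.33, limma adjusted p = 0.448). Mab21l1 (NM_001109497, rn4 chr2:145006131-145008520), a gene of embryonic patterning, was low throughout, at 4.54 and 7.0 CPM in AP_1h, 3.32 and 3.88 in AP_34d, 1.09 and 0.877 in PLA_1h and 0.785 and 1.28 in PLA_34d. The RA_0 values of 6.2 and 2.38 CPM lay in or near the AP range and above all PLA libraries (log2 difference 1.47 ± 0.27, limma adjusted p = 0.386). Rnd1 (NM_001013222, rn4 chr7:137418519-137425590), a small GTPase that acts on the cytoskeleton, gave 17.7 and 16 CPM in AP_1h and 10.7 and 20.2 in AP_34d against 7.04 and 6.32 CPM in PLA_1h and 8.19 and 4.69 in PLA_34d (log2 difference 1.17 ± 0.27, limma adjusted p = 0.489).

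**Figure D2:**
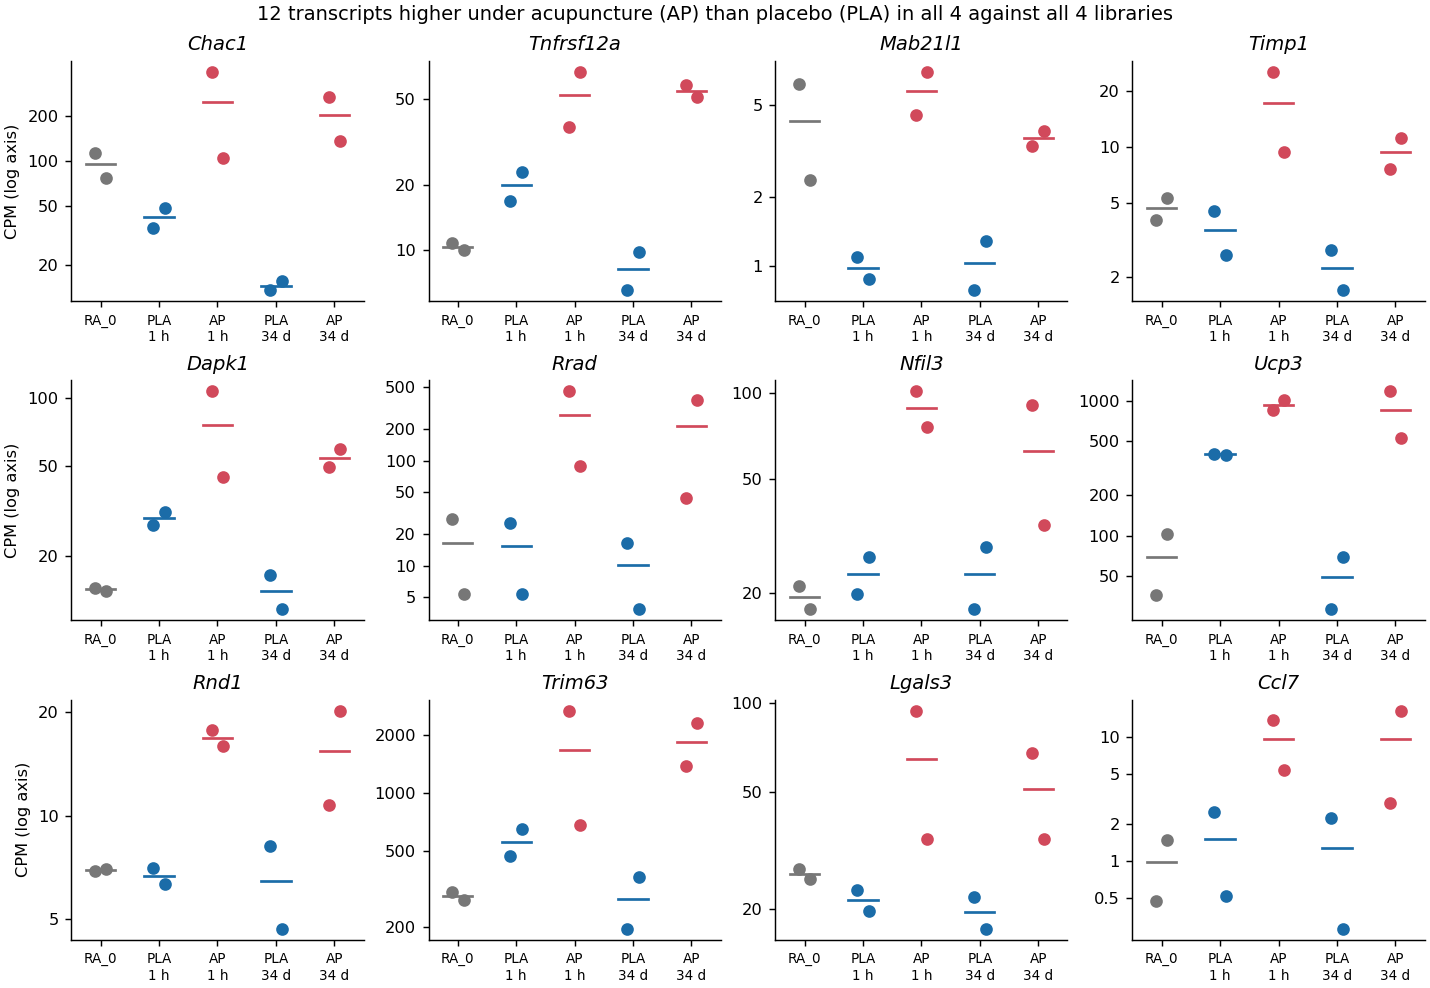
CPM on a log axis of the 12 named transcripts higher under AP, 1 point for each library and a line at the mean of the 2 libraries of a group, for RA_0 (grey), PLA (blue) and AP (red) at 1 h and 34 days. In each panel the 4 red points lie above the 4 blue ones, and 10 of the 12 have the RA_0 mean nearer to PLA, Chac1 and Mab21l1 being the exceptions.

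Among transcripts lower under AP, zinc finger and corepressor genes came first. Zfp365 (NM_001025145, rn4 chr20:21490528-21514845) is a zinc finger protein. It measured 18.9 and 20.9 CPM in PLA_1h and 15.4 and 17.3 in PLA_34d, and 0.649 and 2.66 CPM in AP_1h and 6.25 and 3.14 in AP_34d, with 12.9 and 11.6 CPM in RA_0. The 4 PLA values lay close together and all above RA_0, and the 4 AP values all below it with a wider relative spread (log2 difference -2.37 ± 0.38, limma adjusted p = 0.368). Its promoter is printed for the CACGTG in capitals, first base at -125 (chr20:20664872-20665171, + strand, GRCr8, RefSeq).
Zfp365: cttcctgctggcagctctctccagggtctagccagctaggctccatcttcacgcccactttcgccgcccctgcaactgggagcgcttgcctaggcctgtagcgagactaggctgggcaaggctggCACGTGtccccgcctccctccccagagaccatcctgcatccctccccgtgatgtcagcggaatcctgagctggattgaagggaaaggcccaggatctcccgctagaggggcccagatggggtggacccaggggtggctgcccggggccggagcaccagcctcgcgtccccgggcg
Zfp385b (NM_001107736, rn4 chr3:60099019-60372248), another zinc finger protein, gave 1.95 and 2.1 CPM in AP_1h and 1.76 and 0.747 in AP_34d against 6.94 and 17.4 in PLA_1h and 3.59 and 6.25 in PLA_34d (log2 difference -1.70 ± 0.34, limma adjusted p = 0.399). Rcor2 (NM_001013994, rn4 chr1:209951234-209957328), a corepressor that works with histone demethylase LSD1, was at 1.84 and 1.96 CPM in AP_1h and 4.1 and 4.03 in AP_34d. PLA_1h held 5.95 and 4.91 CPM and PLA_34d 11 and 8.96 CPM, so both arms were higher at 34 days than at 1 h (log2 difference -1.13 ± 0.22, limma adjusted p = 0.399).

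Enzymes of protein and nucleotide modification made up a second set on the lower side. Padi2 (NM_017226, rn4 chr5:159762824-159805399), abundant in muscle, turns arginine in proteins into citrulline, the residue that autoantibodies of rheumatoid arthritis bind. It gave 40.6 and 46.3 CPM in AP_1h and 140.4 and 58.9 in AP_34d against 413 and 220.4 in PLA_1h, 431 and 149 in PLA_34d and 152 and 419 in RA_0. Here the arms all but touched at 34 days (log2 difference -2.12 ± 0.44, limma adjusted p = 0.448). Galnt5 (NM_031796, rn4 chr3:39767515-39814610), which starts O-linked glycosylation, measured 2.59 and 3.36 CPM in AP_1h and 13.5 and 11.5 in AP_34d against 24.5 and 13.5 CPM in PLA_1h and 38.3 and 17.5 in PLA_34d. The gap was wider at 1 h than at 34 days. Nt5c1a (NM_001107976, rn4 chr5:142509257-142524280), the muscle nucleotidase that turns AMP into adenosine, measured 10.1 and 22 CPM in AP_1h and 14.8 and 23.8 in AP_34d against 33.5 and 53.4 CPM in PLA_1h and 34 and 62 in PLA_34d. The log2 differences of Galnt5 and Nt5c1a were -1.64 ± 0.36 and -1.34 ± 0.32 (limma adjusted p of 0.448 and 0.489).

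Signalling and secretion genes closed this side. Map2k6 (NM_053703, rn4 chr10:99859684-99974446), the kinase that activates p38, gave 12.6 and 35.5 CPM in AP_1h and 24.6 and 17.5 in AP_34d, while the PLA values (52 and 46.5 CPM in PLA_1h, 45 and 63.4 in PLA_34d) lay close together and those of RA_0 (65.8 and 67.7 CPM) just above them. Axin2 (NM_024355, rn4 chr10:98294466-98321828), a target and brake of Wnt signalling, gave 3.35 and 7.56 CPM in AP_1h and 4.88 and 10 in AP_34d against 16 and 13.7 CPM in PLA_1h and 19.7 and 13.1 in PLA_34d. Prkcz (NM_022507, rn4 chr5:172061825-172169039), an atypical protein kinase C, was low, at 1.19 and 0.70 CPM in AP_1h and 2.15 and 1.49 in AP_34d against 2.78 and 2.98 CPM in PLA_1h and 4.37 and 5.4 in PLA_34d. None of these 3 was called by any alternative fit, and their log2 differences were -1.25 ± 0.31, -1.23 ± 0.31 and -1.04 ± 0.24 (limma adjusted p of 0.489 for each). Wfdc1 (NM_133581, rn4 chr19:49924439-49943113), a secreted protein of the stroma, measured 6.38 and 11.8 CPM in AP_1h and 20.7 and 7.77 in AP_34d against 26 and 29.7 CPM in PLA_1h and 33.2 and 36.8 in PLA_34d, and was higher before therapy than in any of the 8 (104 and 51.1 CPM). Rab3a (NM_013018, rn4 chr16:19189766-19193874), a GTPase of vesicle release that overlaps Mpv17l2, measured 4.65 and 13.6 CPM in AP_1h and 16.4 and 6.57 in AP_34d against 21.2 and 22.5 CPM in PLA_1h and 21.3 and 36.2 in PLA_34d. Their log2 differences were -1.48 ± 0.31 and -1.33 ± 0.36 (limma adjusted p of 0.448 and 0.608).

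**Figure D3:**
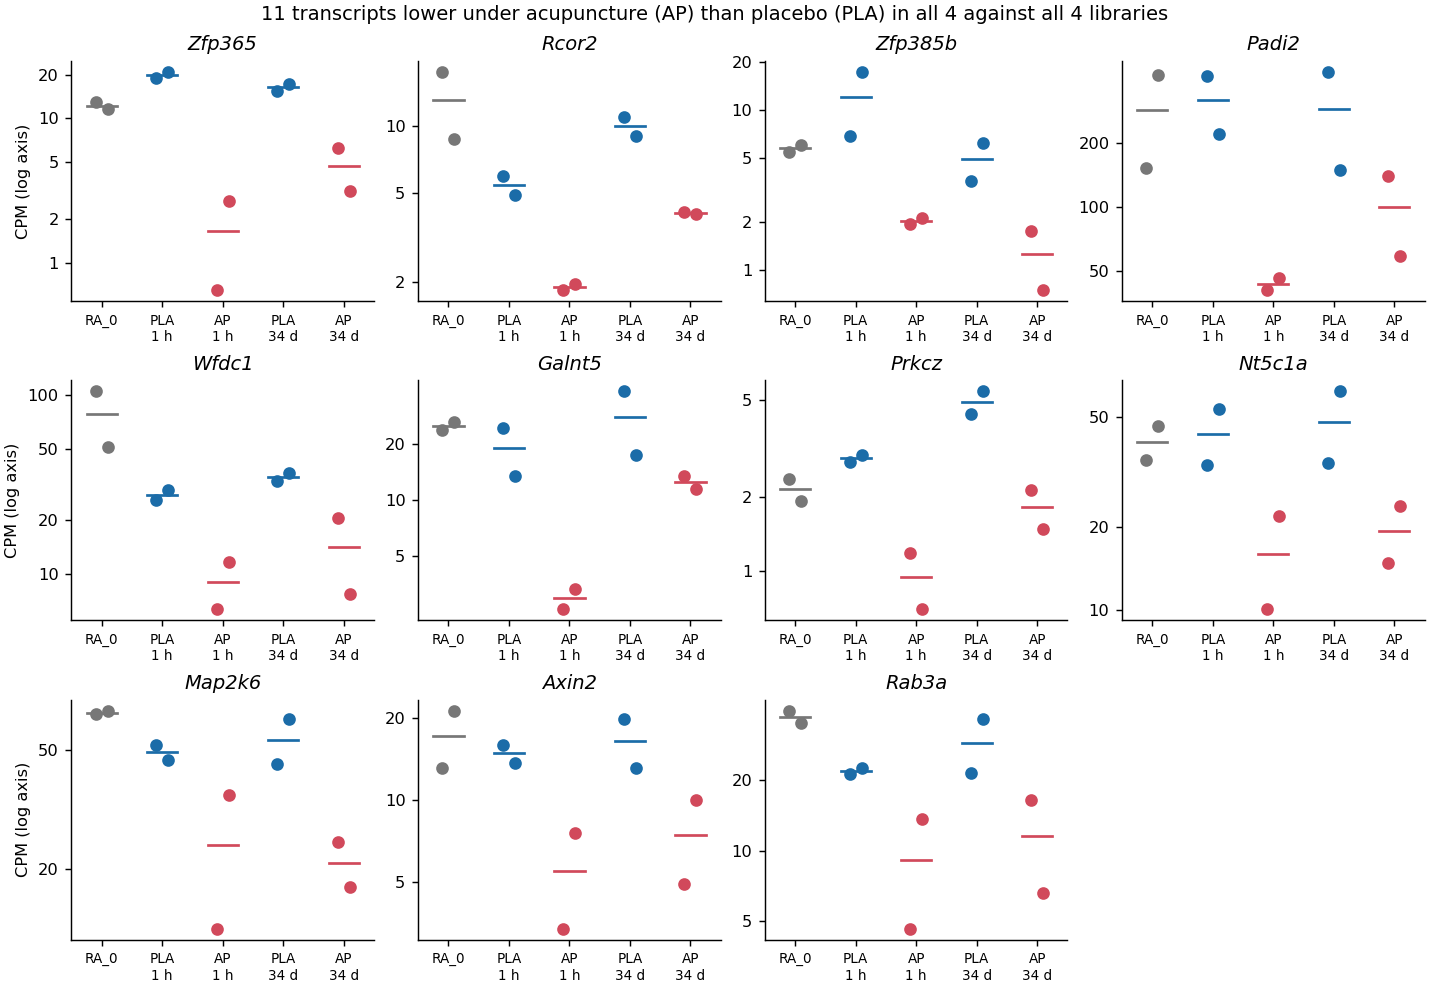
CPM on a log axis of 11 named transcripts lower under AP, drawn as in the plot of the higher ones (1 point for each library, a line at each group mean; RA_0 grey, PLA blue, AP red). The 4 red points lie below the 4 blue ones in each panel, and the RA_0 mean is nearer to PLA in 10 of the 11, Prkcz being the exception.

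The rule did not use the libraries taken before therapy, which serve here as a background level. On the log2 scale the RA_0 mean lay nearer to PLA than to AP for 21 of the 24 named transcripts, and between the arms for 12. The same was true of 217 of the 280 transcripts whose arms did not overlap (77.5%), 99 of the 127 higher and 118 of the 153 lower, and of 5321 of all 9570 transcripts tested (55.6%). Without PLA_34d replicate 1, the 12 higher transcripts differed by 1.32 to 4.28 and the 12 lower ones by -2.55 to -1.08. Because the 24 were chosen for arms that do not overlap, leaving out a library could not turn their direction. The largest move was that of Ucp3, to 2.12. DESeq2 called 20 of the 24, all 12 of the higher side and 8 of the lower, with an adjusted p of 1.2e-08 for Chac1. Over all transcripts it called 0.355% higher and 0.282% lower. The 24 were chosen by a small p and by arms without overlap in these same libraries, so this count is not separate support. A fit with 1 mean for each of the 5 groups over all 10 libraries called Chac1, Tnfrsf12a, Zfp365 and RGD1561161, each with a limma adjusted p of 0.0486. RGD1561161, which overlaps Hspb3 and Snx18, was at 5.62 and 7.42 CPM in AP_1h and 33.8 and 36.7 in AP_34d against 40.4 and 34.9 CPM in PLA_1h and 55 and 48.8 in PLA_34d. Without AP_1h replicate 2, limma called Chac1 (adjusted p = 0.00809) and the metallothionein Mt1a (adjusted p = 0.0428), which was at 426 and 41.1 CPM in AP_1h, 53.5 and 55.4 in AP_34d, 68.5 and 32.3 in PLA_1h and 2.92 and 8.1 in PLA_34d. In AP_1h replicate 2 Mt1a thus lay within the range of PLA_1h.

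None of 43 gene lists held a transcript with a limma adjusted p under 0.05. DESeq2 called 5 of 19 transcripts of the glucocorticoid list, 4 of 13 of the adipocyte list and 3 of 21 of the atrophy list. Over all transcripts it called 0.355% higher and 0.282% lower. Trim63, Mt1a and Mt2A, which it called, are in both the glucocorticoid and the atrophy list. The study's own sets of response to wounding, inflammation and epithelial to mesenchymal transition held 4 of 380, 3 of 243 and 3 of 199. Each list is described by its counts and median, and the median difference of all transcripts was 0.00. The lists were chosen with earlier results of these data known, so their counts beside the shares of all transcripts are descriptions and not tests. The glucocorticoid list had the highest median, 0.77 (0.55 at 1 h and 0.76 at 34 days). Of its 19 transcripts tested, 10 had an unadjusted p under 0.05 with a higher value under AP, 0 with a lower one, and 3 had arms that did not overlap. Over all transcripts 5.79% had an unadjusted p under 0.05 in either direction, and 1.33% lay higher under AP without overlap. Trim63, 1 of the 3, is also a named transcript and was chosen there for arms that do not overlap. Tsc22d3, which encodes the glucocorticoid-induced leucine zipper, was at 864 and 848 CPM in AP_1h, 368 and 397 in AP_34d, 357 and 338 in PLA_1h, 209 and 223 in PLA_34d and 292 and 307 in RA_0 (log2 difference 1.06 ± 0.23, limma adjusted p = 0.448). Both arms were thus lower at 34 days than at 1 h, with AP above PLA at each. Mt2A, a metallothionein, gave 618 and 88.9 CPM in AP_1h, 63.7 and 93.1 in AP_34d, 80.2 and 61.2 in PLA_1h and 1.79 and 12.2 in PLA_34d, a very uneven pair at 1 h. Cst7, a cystatin of leukocytes, gave 416 and 293 CPM in AP_1h and 22.1 and 17.3 in AP_34d against 81.4 and 23.2 CPM in PLA_1h and 10.3 and 13.5 in PLA_34d. The summed level of the list was 4147 to 7773 CPM under AP, 1377 to 2974 CPM under PLA and 1499.9 to 2284 CPM before therapy, so that the arms did not overlap, also without Trim63, its most abundant member (3466 to 5107 CPM against 1181 to 2492 CPM).

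The list of atrophy ligases and FoxO targets shares Trim63, Fbxo32, Klf15, Mt1a and Mt2A with it. Of its 21 transcripts, 20 had a positive difference, 6 of them with an unadjusted p under 0.05, and the median was 0.67 (0.12 at 1 h, 1.19 at 34 days and 0.66 at 34 days without PLA_34d replicate 1). Its summed level was 4915 to 9713 CPM under AP and 2411 to 4557 CPM under PLA, without overlap. Gadd45a, a growth arrest gene of wasting muscle, measured 1109 and 526 CPM in AP_1h, 106 and 212 in AP_34d, 355 and 107 in PLA_1h and 34.8 and 96.8 in PLA_34d. Of 37 proteasome subunit transcripts, 34 were higher under AP, with a median of 0.41 that lay at 0.06 at 1 h and 0.76 at 34 days, and 1 had an unadjusted p under 0.05. Without PLA_34d replicate 1 the median was 0.21, and 0.49 at 34 days. Of all transcripts tested, 50.0% had a higher value under AP. All 74 cytosolic ribosomal protein transcripts were higher as well, by a small median of 0.25 beside a spread between replicates of 0.36. Of these, 2 had an unadjusted p under 0.05, a smaller share than the 5.79% of all transcripts. The summed ribosomal levels overlapped (8021 to 14735 CPM under AP, 9283 to 13364 CPM under PLA). So did those of the proteasome (4295 to 6414 CPM under AP, 2729 to 5840 CPM under PLA). Genes of one complex share their regulation and library, so these counts are not independent tests.

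Fuel genes had no common direction, and the median over 31 transcripts was -0.13, with -0.55 at 1 h and 0.38 at 34 days. Single members stood out in both directions. Pdk4, the kinase that shuts off glucose oxidation, was at 561 and 979 CPM in AP_1h and 1946 and 1094 in AP_34d against 526 and 443 in PLA_1h and 92.4 and 363 in PLA_34d, without overlap (log2 difference 1.8 ± 0.56, limma adjusted p = 0.709). G0s2, an inhibitor of fat breakdown, was at 42.7 and 28.3 CPM in AP_1h and 4.88 and 4.18 in AP_34d against 46 and 57 CPM in PLA_1h and 34.9 and 29.3 in PLA_34d (log2 difference -1.56 ± 0.39, limma adjusted p = 0.489). Angptl4, an inhibitor of lipoprotein lipase, was at 27.7 and 16.9 CPM in AP_1h and 108 and 13 in AP_34d against 21.1 and 3.69 CPM in PLA_1h and 3.14 and 2.99 in PLA_34d. Oxidative phosphorylation subunits had a median of -0.25 over 76 transcripts, of which 69 were lower under AP and 7 higher. The median was -0.54 at 1 h and 0.06 at 34 days, which became -0.54 at 34 days without PLA_34d replicate 1. Slow fibre genes had a median of -0.61, with 15 of 17 transcripts lower under AP, and at 34 days it went from -0.13 to 1.33 when that library was left out. Fast fibre genes, glycolysis and the neuromuscular junction had medians of 0.06, 0.04 and -0.07.

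Clock genes were read as those of the Arntl phase and those of the opposite Dbp phase. Of 5 transcripts of the first, 4 were higher under AP, 3 with an unadjusted p under 0.05 (median 0.57, 0.57 at 1 h and 0.43 at 34 days), and of 9 of the second, 8 were lower, 1 with an unadjusted p under 0.05 (median -0.19, -0.04 at 1 h and -0.37 at 34 days), and 4 of the 9 were lower at both times. Over all transcripts 50.0% were higher under AP, and 5.79% had such a p in either direction. Arntl, the activator of the clock also called Bmal1, was at 22.6 and 24.9 CPM in AP_1h, 24.8 and 17.5 in AP_34d, 17.2 and 14.2 in PLA_1h, 7.07 and 5.69 in PLA_34d and 2.62 and 3.86 in RA_0, so that the arms did not overlap and both lay above RA_0 (log2 difference 1.07 ± 0.27, limma adjusted p = 0.489). Dbp, an output gene of the clock, was at 167 and 81.3 CPM in AP_1h, 58.6 and 143 in AP_34d, 137 and 181 in PLA_1h, 249 and 295 in PLA_34d and 426 and 418 in RA_0, with an overlap at 1 h. Hour of day was not in the labels, and its part in these values was not tested.

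Genes of injury, early response and inflammation gave a mixed picture. The median of the immediate early list was 0.73, higher at 1 h (0.93) than at 34 days (0.28), with a spread between replicates of 0.72. Its summed level was uneven at 1 h, at 4666 and 1302 CPM in AP_1h against 1700 and 1394 CPM in PLA_1h. AP_1h replicate 2 thus lay below both PLA_1h libraries. At 34 days the sums were 1739 and 1568 CPM under AP and 1450 and 1387 CPM under PLA, and those of RA_0 1552 and 3141 CPM. Of the 22 transcripts of this list, 17 were higher under AP and 5 lower, and 6 of the higher ones had an unadjusted p under 0.05. Over all transcripts 50.0% were higher under AP, and 5.79% had such a p in either direction. Nr4a3, an orphan nuclear receptor of exercised muscle, measured 15.2 and 10.2 CPM in AP_1h and 2.15 and 3.14 in AP_34d against 3.17 and 1.4 CPM in PLA_1h and 3.03 and 1.14 in PLA_34d, a gap seen at 1 h alone. Fosl1, a subunit of AP-1, measured 2.81 and 6.86 CPM in AP_1h and 1.95 and 17.9 in AP_34d against 0.991 and 0.175 CPM in PLA_1h and 1.46 and 0.995 in PLA_34d, without overlap. Myogenic factors had a median of 0.39 over 14 transcripts, -0.08 at 1 h and 0.91 at 34 days, and without PLA_34d replicate 1 0.04 over both times and 0.27 at 34 days. Among them Myog measured 483 and 179 CPM in AP_1h and 46.1 and 231 in AP_34d against 179 and 54.1 CPM in PLA_1h and 31.9 and 40.8 in PLA_34d, and Myf6 821 and 915 CPM in AP_1h and 390.2 and 237 in AP_34d against 407 and 248 CPM in PLA_1h and 109 and 235 in PLA_34d, both with overlap between the arms. The matrix list had a median of 0.31, with 23 of 28 transcripts higher (50.0% of all transcripts). An unadjusted p under 0.05 was found for 3 of the 23 (5.79% of all transcripts in either direction). Col3a1, a collagen of young scar, measured 1178 and 746 CPM in AP_1h and 760.1 and 265 in AP_34d against 388 and 313 CPM in PLA_1h and 328 and 245 in PLA_34d, where 1 AP_34d library lay within the PLA range.

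The acute phase and interleukin 6 list had a median of 0.59 over 13 transcripts, while chemokines and inflammatory cytokines had 0.12 over 18. Ccl2, the neighbour of Ccl7 in function, measured 18.3 and 5.32 CPM in AP_1h and 1.56 and 29.4 in AP_34d against 3.77 and 0.526 CPM in PLA_1h and 3.14 and 0.995 in PLA_34d, with AP_34d replicate 1 inside the PLA range. Interferon and antigen presentation genes had a median of -0.15, which was 0.05 without PLA_34d replicate 1, and 22 of 29 transcripts were lower under AP. Within that list Ubd, a ubiquitin-like protein induced by interferon, was lower under AP without overlap, at 16.4 and 13.7 CPM in AP_1h and 8.2 and 1.79 in AP_34d against 28.6 and 32.8 CPM in PLA_1h and 23.7 and 25.4 in PLA_34d, whereas RA_0 held 2.62 and 3.86 CPM (log2 difference -1.66 ± 0.40, limma adjusted p = 0.489). The integrated stress response list, which holds Chac1, had a median of 0.12 over 14 transcripts. Its member Atf5, a factor of the same pathway, was lower under AP without overlap, at 56.3 and 46.6 CPM in AP_1h and 67.4 and 68.1 in AP_34d against 96.6 and 85.5 CPM in PLA_1h and 107 and 147 in PLA_34d (log2 difference -0.85 ± 0.20, limma adjusted p = 0.489). Chac1 and Atf5 thus lay on opposite sides of the comparison. The lists of Nrf2 targets, heat shock proteins and calcium handling had medians of 0.31, 0.15 and -0.24, and within the last Trpc1, a cation channel, was at 0.324 and 0.56 CPM in AP_1h and 1.37 and 1.05 in AP_34d against 2.58 and 2.11 CPM in PLA_1h and 3.7 and 2.99 in PLA_34d.

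**Figure D4:**
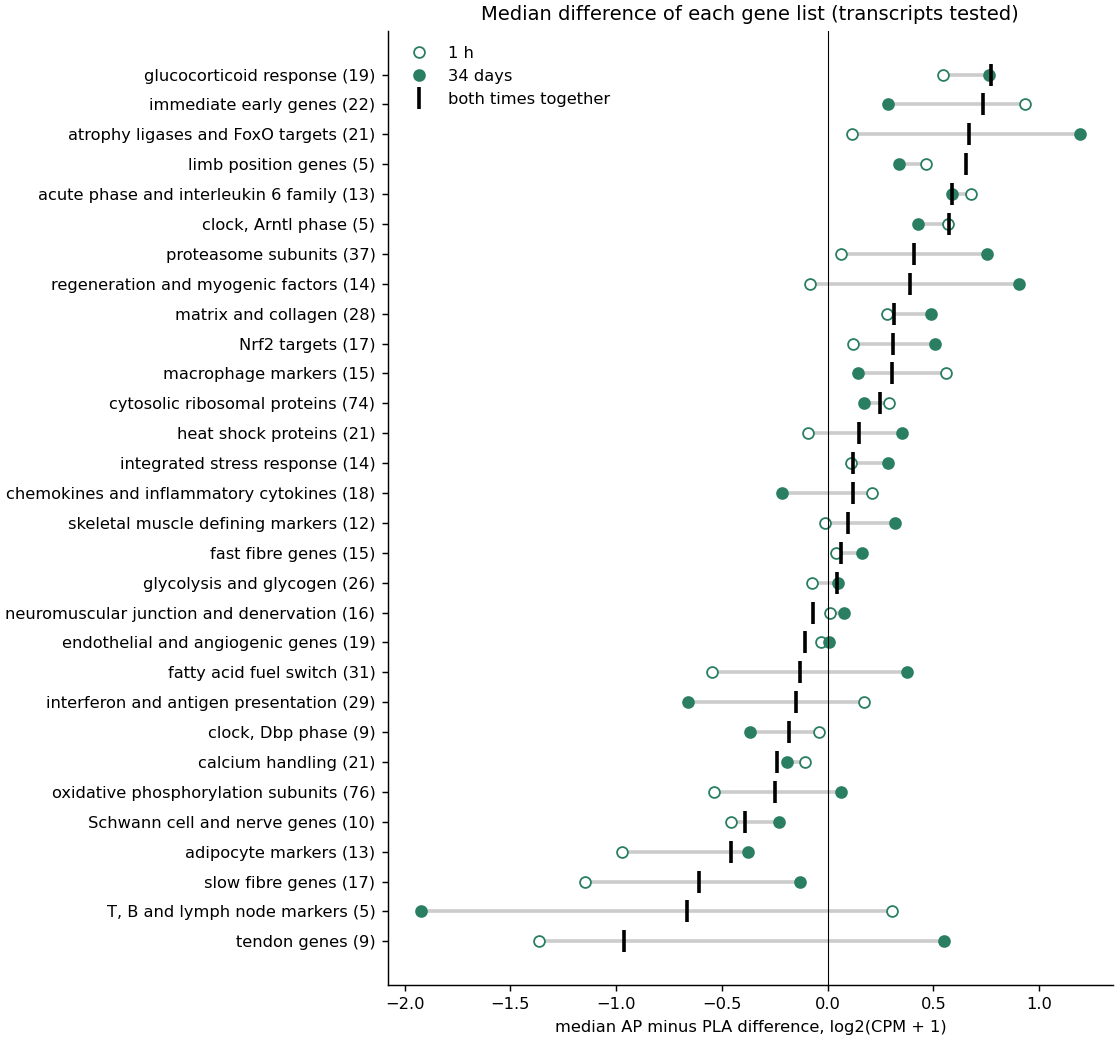
Median AP minus PLA difference on the log2(CPM + 1) scale for each gene list with at least 5 transcripts tested (their number in parentheses), at 1 h (open circles), at 34 days (filled circles) and in the fit over both times (bars). The glucocorticoid list is highest (0.77) and the tendon list lowest (-0.96), and for several lists, T, B and lymph node markers among them, the circles lie on either side of 0.

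Markers of other tissues were read the same way. Of 13 adipocyte transcripts tested, 8 were lower under AP and 5 higher, the latter by a log2 difference of up to 1.27. An unadjusted p under 0.05 was found for 5 of the lower and 0 of the higher ones (5.79% of all transcripts in either direction). The median was -0.46 (-0.27 without PLA_34d replicate 1). Adipoq, the fat cell hormone adiponectin, was at 3.89 and 1.82 CPM in AP_1h and 18.2 and 13.3 in AP_34d against 21.1 and 12.6 in PLA_1h and 73 and 20 in PLA_34d. Plin1, which coats the fat droplet, was at 2.05 and 1.12 CPM in AP_1h and 1.56 and 2.84 in AP_34d against 7.04 and 2.11 CPM in PLA_1h and 16.4 and 6.25 in PLA_34d. Lep, leptin, was at 0.108 and 0.14 CPM in AP_1h and 0.977 and 0.598 in AP_34d against 1.09 and 1.75 CPM in PLA_1h and 10.3 and 1.85 in PLA_34d, and the desaturase Scd (named Scd2 on GRCr8) at 59.6 and 79.8 CPM in AP_1h and 56.8 and 58.6 in AP_34d against 237 and 99 CPM in PLA_1h and 228 and 90.4 in PLA_34d, both without overlap. PLA_34d replicate 1 held the most Adipoq, Plin1 and Lep. The list summed to 4122 to 5612 CPM under AP and 5706 to 8149 CPM under PLA, but Car3, which muscle fibres also make, carried 68.4% of it, and without Car3 the arms overlapped (1189.6 to 2349 CPM against 1668 to 2319.5 CPM). The part of fat in the values of Scd and Lep was not tested.

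All 15 macrophage transcripts had a positive difference, against 50.0% of all transcripts tested, with a median of 0.31. An unadjusted p under 0.05 was found for 1 of the 15 (5.79% of all transcripts in either direction). The summed levels overlapped widely (153 to 404 CPM under AP, 116 to 418 CPM under PLA). The highest sum was that of PLA_34d replicate 1, and without it the median was 0.69, with 0.86 in place of 0.14 at 34 days. Cd163, a receptor of resident macrophages, measured 13.8 and 7.14 CPM in AP_1h and 18.2 and 19.9 in AP_34d against 9.32 and 4.39 CPM in PLA_1h and 7.07 and 3.7 in PLA_34d. Beside the galectin and chemokine values above, the part of macrophages was not tested. Lists for red blood cells, endothelium, Schwann cells, and granulocytes and mast cells had medians of -0.12, -0.11, -0.39 and 0.23, and their summed levels overlapped between the arms. Keratinocyte and epithelial markers were near 0, with a summed level of at most 13.5 CPM in any of the 8. Of 5 T cell, B cell and lymph node transcripts tested, all were lower under AP (median -0.66), and without PLA_34d replicate 1 the median was 0.40. Tendon genes had the lowest median (-0.96 over 9), with -1.37 at 1 h and 0.55 at 34 days. Of these transcripts, 6 were lower under AP and 3 higher, and without PLA_34d replicate 1 the 34-day median was 1.54. Col11a2, a collagen chain of cartilage and tendon, measured 0.973 and 1.12 CPM in AP_1h and 3.52 and 2.99 in AP_34d against 4.16 and 4.39 CPM in PLA_1h and 14.2 and 2.42 in PLA_34d. Going against its list, Scx, the factor that sets tendon identity, measured 50.9 and 33 CPM in AP_1h and 7.81 and 23.5 in AP_34d against 23.7 and 18.3 CPM in PLA_1h and 8.97 and 4.26 in PLA_34d. Of 5 genes that mark the position of the limb, 3 had a higher and 2 a lower value under AP (median 0.66), all with overlap between the arms. Hoxd9 measured 25.9 and 27.3 CPM in AP_1h and 18.8 and 7.62 in AP_34d against 8.62 and 4.21 CPM in PLA_1h and 10.9 and 2.42 in PLA_34d, and Hoxd10 6.81 and 9.24 CPM in AP_1h and 2.15 and 2.09 in AP_34d against 1.69 and 0.351 CPM in PLA_1h and 2.47 and 0.853 in PLA_34d, while Hoxa10 was lower in AP_1h (1.08 and 1.54 CPM) than in PLA_1h (13.8 and 9.83 CPM). Of 4 genes that mark the position of trunk and forelimb, 3 had a lower value under AP, each at both times, and 1 a higher one (median -0.41). Their arms overlapped as well. Whether the pieces of the arms came from the same place was not tested.

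**Figure D5:**
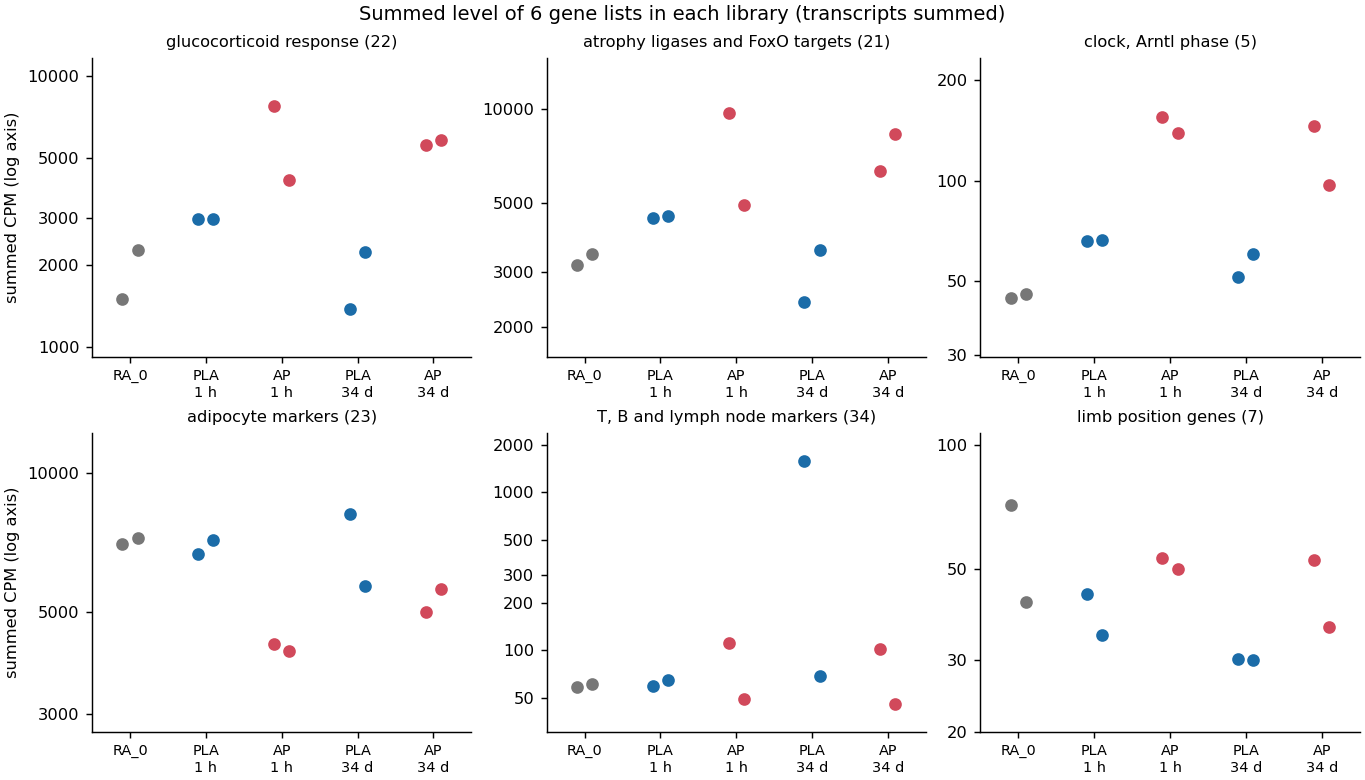
Summed CPM on a log axis of 6 gene lists, 1 point for each library (number of transcripts summed in parentheses; RA_0 grey, PLA blue, AP red). The glucocorticoid, atrophy and Arntl phase sums do not overlap between AP and PLA, nor does the adipocyte sum, of which Car3 carried 68.4%, and PLA_34d replicate 1 stands out for T, B and lymph node markers at 1580.2 CPM.

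The sets that the study drew up had medians between -0.22 and 0.09, beside 0.00 for all transcripts. Its sets of mechanical and early wound signals had medians of -0.13 over 35 transcripts and -0.22 over 60, its sets of epithelial to mesenchymal transition -0.04 over 199 and, for the wound healing type, -0.03 over 55, and its ontology sets of wound healing, inflammation and response to wounding -0.01, 0.09 and 0.04 over 202, 243 and 380. In the same order, the medians without PLA_34d replicate 1 were 0.01, -0.06, 0.04, -0.01, 0.10, 0.15 and 0.09. The study tested these sets on genes that differed after against before therapy, and in blood as well. AP against PLA over both times is another comparison. Of the single genes that the study followed, Fos measured 137 and 37.1 CPM in AP_1h and 26.6 and 28.4 in AP_34d against 40 and 9.83 CPM in PLA_1h and 44.4 and 8.1 in PLA_34d, Adora2a 7.89 and 3.22 CPM in AP_1h and 9.37 and 5.98 in AP_34d against 7.34 and 10.7 CPM in PLA_1h and 6.84 and 7.53 in PLA_34d, and Ada 17.2 and 4.62 CPM in AP_1h and 7.62 and 3.29 in AP_34d against 6.64 and 4.04 CPM in PLA_1h and 6.51 and 3.13 in PLA_34d, with overlap in each. The study measured ADORA2A and ADA as protein in blood serum and Fos as RNA in cultured synovial cells. The values here are RNA of the needled tissue and are not the same measure. Only 4 of the 8 genes on this list were tested.

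The interaction of arm and time, which asks whether the AP minus PLA difference changed between 1 h and 34 days, gave 0 calls by limma (0% of 9570, smallest adjusted p of 1.00) and 294 transcripts with an unadjusted p under 0.05 (3.07%), while edgeR and limma-voom gave 0 and DESeq2 19. Of the 21 transcripts that differed by at least 1 in opposite directions, Dgkz, a kinase that clears diacylglycerol, had the smallest unadjusted p (1.4e-04), with 82.4 and 77.7 CPM in AP_1h against 43.6 and 33.7 in PLA_1h and 38.9 and 23.9 CPM in AP_34d against 114 and 111 in PLA_34d. Irf3, a factor of antiviral signalling, gave 51.3 and 52.8 against 35.9 and 13 CPM at 1 h and 21.3 and 28.8 against 58 and 47.5 CPM at 34 days. Cd24, a surface glycoprotein, showed the reverse order, 286 and 111 against 487 and 399 CPM at 1 h and 715 and 697 against 211 and 319 CPM at 34 days. These 3 were chosen after their values were seen, and a fit over both times averages such differences away.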

How the data were processed

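Per the file headers and the study's methods, the authors sequenced 1 library for each rat (TruSeq kit, HiSeq), ran CASAVA 1.8.2, cutadapt 1.2.1, Bowtie2 2.1.0 on rn4 and HTSeq 0.5.4p3, and scaled the counts with edgeR 3.4.2 (TMM). The use of strand in counting is not given in the sources used here, so overlapping genes are marked. The signal values as deposited are these counts per 1000000 after TMM scaling. Each is a whole multiple of 1 read, and all values (100%, tolerance 0.01 read) came out as whole reads.

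Transcripts with at least 1 CPM in all 4 libraries of either arm were tested with limma 3.58.1 on log2(CPM + 1), with time and arm as terms, trended moderation and Benjamini-Hochberg adjustment (R 4.3.3). For the interaction a term of arm by time was added. A fold change on this scale understates that of low transcripts. Limma-voom, edgeR 4.0.16 (quasi-likelihood) and DESeq2 1.42.0 on the recovered reads, other scalings, filters and pseudocounts, and leaving out each library were alternatives. The code for the fits was tested on simulated data.

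Named transcripts are, in each direction, the 12 with the smallest unadjusted p among those with no overlap of the arms and a difference of at least 1 of the same sign at each time; list members are named by smallest unadjusted p. The values of 1 named transcript are not reported here, and counts over the 24 include it. Members and lists were chosen with earlier results of these data known. Symbols matched RefSeq on GRCr8 for 15958 of 17221 transcripts (92.7%), and GRCr8 was used for names and promoters only. The CPM level of 3 reads covers counting error only.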

Additional observations from a re-analysis of the deposited data

Results flagged for a closer look

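In the 4 libraries of an arm, a library far from the other 3 was looked for in the named transcripts and in the summed gene lists (76 groups of 4). It was found 3 times, and chance gives about 1 in 20 groups. Rab3a stood at 36.2472 CPM in PLA_34d replicate 2 and between 21.2 and 22.5 CPM in the other PLA libraries. The highest AP value of Rab3a was 13.6 CPM at 1 h and 16.4 CPM at 34 days. These lie below the other 3 PLA libraries by the rule that named it, which asked for arms without overlap. The summed T cell, B cell and lymph node markers stood at 1580.19 CPM in PLA_34d replicate 1 and between 59.6 and 68.7 CPM in the other PLA libraries. The summed limb position genes stood at 36 CPM in AP_34d replicate 2 and between 49.96 and 53.1 CPM in the other AP libraries.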

How the results depend on the processing

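The count of transcripts called (0) was 4 with 1 mean for each group over 10 libraries, 61 by DESeq2 and 0 to 2 when each library was left out, the 2 without AP_1h replicate 2. The 165 transcripts that met the study's thresholds became 88 with a pseudocount of 4, 266 by edgeR, 292 by DESeq2 and 121 to 249 when a library was left out (249 without AP_34d replicate 1), and the 79 higher ones 50, 119, 129 and 54 to 127 (127 without AP_1h replicate 2). Transcripts without overlap (280) numbered 383 to 720 when a library was left out, by over 1.5 times without AP_1h replicate 2 (569), PLA_1h replicate 1 (526) or 2 (720), AP_34d replicate 1 (705) or 2 (682) or PLA_34d replicate 1 (461), since fewer libraries leave fewer chances to overlap. Interaction calls (0) were 19 by DESeq2 and 0 to 29 when a library was left out (29 without PLA_34d replicate 2). The share of transcripts with the same sign at both times (52.9%) was 54.0% after quantile normalization, 51.6% without the 20 most abundant transcripts, 47.5% with no filter and 45.2% to 60.7% when a library was left out. The causes were not tested.

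Of 550 alternative values for named transcripts, 526 kept direction and side of the threshold, 24 kept direction and passed it, and 0 reversed. Since the named transcripts were chosen for arms that do not overlap, no fit that left out a library could reverse them. Of 858 list medians, 847 moved by less than the spread between replicates. The deviations of same-numbered replicates correlated between -0.47 (PLA_1h with AP_34d) and 0.46 (PLA_1h with PLA_34d) over 6 pairs of groups. With 2 libraries in each group, such values cannot show whether the numbers pair the samples. A fit with the replicate number as a block called 0 transcripts.

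With 4 animals in each arm and 2 at each time, no difference of any size had a limma adjusted p under 0.05 in the comparison as reported (Rrad, the largest named, had 0.399), and levels under 0.586 CPM can rest on 3 reads or fewer.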
